A study of Mus musculus with 150 samples.

Results

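DNA damage response and repair genes were followed in mouse lung epithelial cells, either wild type or lacking p53, a transcription factor whose gene is Trp53. The set was given as a list of 37 genes, and it was chosen with earlier results of these data known. All 37 were found by symbol among the 24341 rows of the bulk table and among the 31175 rows of the single-cell tables that are not ERCC spike-ins. They were grouped into 11 routes by textbook function: checkpoint kinases (Atm, Atr, Chek1, Chek2), the MRN complex (Rad50, Mre11a, Nbn), homologous recombination (Brca1, Brca2, Palb2, Rad51c, Xrcc2), the Fanconi anemia pathway (Fancd2), end joining (Xrcc4, Xrcc5, Xrcc6, Lig4, Prkdc), base excision and single-strand break repair (Xrcc1, Lig1, Lig3, Parp1, Ogg1, Apex1, Ung), nucleotide excision repair (Ercc1, Ercc2, Ercc4, Ercc5, Xpa, Xpc, Ddb1, Ddb2), mismatch repair (Msh6), direct reversal (Mgmt), translesion synthesis (Polk) and nucleotide supply (Rrm2b).

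There were 6 bulk libraries: replicates 1, 5 and 6 were wild type, and replicates 7, 8 and 10 were knockout. All were made from cells that were GFP+ and EpCAM+ and lacked CD31, CD34 and CD45. Both genotypes carried Scgb1a1-CreERTM, a tamoxifen-inducible recombinase driven by the promoter of a club cell gene, and Rosa26-mT/mG, a reporter that turns green after recombination. The wild-type mice were p53+/+ and the knockout mice p53flox/flox, per the treatment protocol, so p53 was deleted only where the recombinase had acted. The mice were 8 to 12 weeks old. The titles name day 30 and the protocol names 70 days after tamoxifen. The strain background is not given in the labels. The single-cell set held cells caught on Fluidigm C1 chips, whose 96 microfluidic wells each take a cell. After wells with a remark and wells with under 1000 detected genes were left out, 66 wild-type cells and 61 cells labelled knockout remained. The genotype label there reads p53-/-, while the protocol names p53flox, p53-/- and Super p53 lines crossed to Scgb1a1-CreERTM with Rosa26-mT/mG or Rosa26R-Confetti reporters, and tamoxifen at 250 mg/kg for RNA sequencing. Which line gave the chip, and whether the captured cells were fresh or grown with fibroblasts in Matrigel, is not clear from the labels. Nothing in the labels says that the bulk libraries came from separate animals, so their p-values rest on a spread between libraries that may be technical.

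DNA is damaged constantly, and cells answer with kinases that sense the lesion and with repair routes that each handle a kind of damage. Base excision removes oxidised or alkylated bases, nucleotide excision removes bulky adducts such as those from sunlight or smoke, and breaks of both strands are joined directly or copied from a sister chromatid by homologous recombination. p53 is activated by the damage kinases. Among the 37 genes it is known to activate 4: Ddb2 and Xpc, which recognise bulky lesions, Polk, a polymerase that copies past them, and Rrm2b, a subunit of ribonucleotide reductase. Homologous recombination and mismatch repair genes are linked to S phase in dividing cells, through E2F factors among others.

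The promoter sequences of 4 members are shown because the values below turn on them or because their windows hold a motif that was searched. RefSeq windows of 300 bases (GRCm38.p6, 250 bases before and 50 after a transcription start) were matched by symbol for 29 of the 37 members, giving 35 windows. No window was matched for Rad50, Nbn, Xrcc2, Fancd2, Prkdc, Xpc, Ddb2 and Rrm2b. The p53 half-site consensus, read on both strands, was found in 1 of the 35 member windows, or 2.86%, against 8.36% of all 32851 windows. The member was Polk, whose window at chr13:96519138-96519437 (minus strand, 1 of its 2 windows) has the match starting 231 bases before the transcription start of that window. This start lies inside the annotated gene, chr13:96480690-96542579, and not at its 5' end. The other Polk window held no half-site. The window of Ogg1, the glycosylase that removes 8-oxoguanine, lies at chr6:113326726-113327025 (plus strand) and holds none of the searched motifs. Capitals mark the half-site in the Polk window, and the Ogg1 window has no capitals.
Polk: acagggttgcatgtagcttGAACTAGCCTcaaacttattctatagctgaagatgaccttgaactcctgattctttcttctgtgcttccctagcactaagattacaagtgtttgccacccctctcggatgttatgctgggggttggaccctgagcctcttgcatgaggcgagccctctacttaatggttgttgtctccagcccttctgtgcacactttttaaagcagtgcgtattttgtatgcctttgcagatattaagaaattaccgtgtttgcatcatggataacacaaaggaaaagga
Ogg1: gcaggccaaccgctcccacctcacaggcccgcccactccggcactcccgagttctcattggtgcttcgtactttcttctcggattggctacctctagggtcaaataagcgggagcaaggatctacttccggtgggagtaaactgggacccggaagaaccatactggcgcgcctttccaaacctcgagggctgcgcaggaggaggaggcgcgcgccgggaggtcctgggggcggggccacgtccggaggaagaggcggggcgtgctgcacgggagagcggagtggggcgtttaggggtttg
The E2F words searched on both strands were TTTCCCGC, TTTCGCGC, TTTGCCGC and TTTGGCGC. A window counted once whichever word it held. They were in 7 of the 35 member windows, against 2.26% of all windows, and these belonged to 6 members: Brca2, Chek2, Lig1, Msh6, Rad51c and Xrcc6. Chek2, a checkpoint kinase, is shown at chr5:110839733-110840032 and Msh6, which recognises mismatches, at chr17:87974800-87975099 (both plus strand). In these the capitals mark the E2F word.
Chek2: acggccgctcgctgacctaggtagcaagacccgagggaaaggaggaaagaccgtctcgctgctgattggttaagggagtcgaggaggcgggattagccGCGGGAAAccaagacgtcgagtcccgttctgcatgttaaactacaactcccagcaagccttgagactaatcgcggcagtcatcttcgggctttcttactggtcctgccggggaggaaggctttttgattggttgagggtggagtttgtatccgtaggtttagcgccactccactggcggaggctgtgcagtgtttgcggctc
Msh6: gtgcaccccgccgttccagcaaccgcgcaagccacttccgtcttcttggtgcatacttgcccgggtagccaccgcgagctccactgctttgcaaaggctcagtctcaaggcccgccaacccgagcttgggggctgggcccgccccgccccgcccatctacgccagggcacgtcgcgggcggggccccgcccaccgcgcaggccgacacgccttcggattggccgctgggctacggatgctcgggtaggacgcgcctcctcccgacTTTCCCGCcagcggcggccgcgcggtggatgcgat
The CHR element TTTGAA, found in promoters of many cell cycle genes, was in 1 of the 35 windows, that of Ercc5, against 17.9% of all windows. A match is a description of the letters in these windows, and no factor binding was measured.

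The genotype labels were checked first. Trp53 was at 16.6, 22.2 and 21.7 FPKM in wild-type replicates 1, 5 and 6 and at 8.63, 9.98 and 7.56 FPKM in knockout replicates 7, 8 and 10, lower in every knockout library (log2 fold change -1.12 ± 0.149 (SE), limma adjusted p = 0.144). The value is for the whole gene, including exons that the deletion leaves. Of 5 p53 targets that are not repair genes, Cdkn1a, Bbc3, Ccng1 and Phlda3 were lower in all knockout libraries, with log2 fold changes of -1.18, -1.06, -0.84 and -1.17, and Mdm2 overlapped between genotypes. In the single cells Trp53 went against the label: with detection set at a TPM of 1 or more, 4 of 66 wild-type cells held it, against 16 of 61 cells labelled knockout. Cdkn1a was detected in 31 of 66 and 19 of 61 cells, Ccng1 in 26 of 66 and 19 of 61, and Phlda3 in 8 of 66 and 0 of 61 cells, a count that allows up to 4.92%. Bbc3 was detected in 8 of 66 and 8 of 61 cells, and Mdm2 in 13 of 66 and 21 of 61.

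The bulk libraries differed in cell type markers as well as genotype. FPKM does not give the read depth of a library. Summed FPKM over 10 ciliated cell markers was 509, 147 and 135 in wild-type replicates 1, 5 and 6 and 458 to 800 in knockout, with all 10 means higher in knockout. The sum over the 5 alveolar type 2 markers with values was 9135 in wild-type replicate 1, 4313 and 5088 in wild-type replicates 5 and 6, and 3654 to 4004 in knockout, with all 5 means lower in knockout. The 7 immune markers summed to 72.1 to 108 FPKM in wild type and 36.4 to 59.8 in knockout, and the 7 fibroblast markers to 42.3 to 102 and 35.3 to 38.7 FPKM, with every mean lower in knockout. Club markers summed to 31273 FPKM in wild-type replicate 1 and to between 60128 and 76512 FPKM in the other 5 libraries. All 4 basal cell markers were under 1 FPKM in every library. Of the 5 endothelial markers Pecam1 and Cdh5 were under 1 FPKM throughout, while the whole list summed to 100 to 129 FPKM in wild type and 73.6 to 112 in knockout. For the members below, more cells of a type and more RNA per cell cannot be told apart in bulk. Their part in the results was not tested.

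In bulk, repair gene levels differed little between genotypes. Of the 37 members, 30 had at least 1 FPKM in at least 3 of the 6 libraries and entered the fit over 11957 genes. The 7 below that level were Brca1, Brca2, Chek1, Palb2, Rad51c, Fancd2 and Ung. Of the 30, 0 passed the limma adjusted p of 0.05, where 1 gene of all tested did (0.00836%). At an unadjusted limma p under 0.05 there were 2 members, Ogg1 and Polk, both higher in knockout, against 13.1% of all tested genes. The knockout libraries lay wholly above or below the wild-type ones for 3 of the 30 members, against 19.3% of all tested genes. This count depended on the libraries and their scaling: without wild-type replicate 1 it was 12 of 30 (35.6% of all genes), and with each library scaled to the same FPKM sum it was 1 of 30 (11.6%). Without wild-type replicate 5, knockout replicate 7 or knockout replicate 10 it was 5 (27.7%, 28.3% and 28.0% of all genes), and without knockout replicate 8 it was 7 (28.0%). Ogg1 was the member above (9.04% of all genes were above), and Ddb2 and Ercc2 were the members below (10.2% of all genes were below). The median log2 fold change over the 30 members was 0.01, with 17 positive and 13 negative, and over all tested genes 0.01. The limma interval (95%) lay within a 1.5-fold change of FPKM + 1 either way for 24 of the 30 members. It did so for 61.5% of all tested genes. For low genes this bound allows a larger change in FPKM itself. Exact permutation over 3 against 3 libraries cannot go below p = 0.1.

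**Figure D1:**
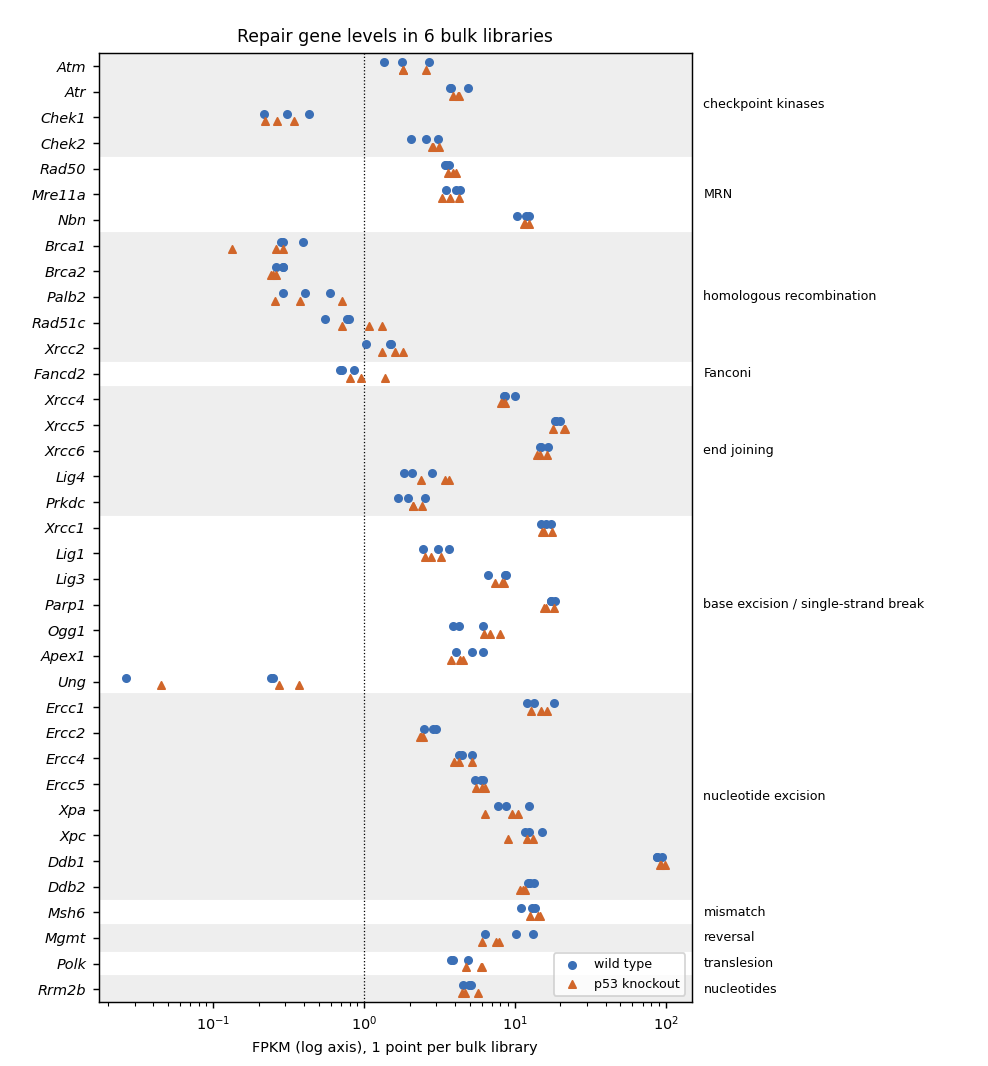
FPKM (log axis) of the 37 repair genes in each of the 3 wild-type libraries (circles) and 3 knockout libraries (triangles), grouped by route, with a dotted line at 1 FPKM. Ddb1 stands highest, at 86.7 to 98.1 FPKM, and 5 genes (Chek1, Brca1, Brca2, Palb2 and Ung) lie left of the line in all 6 libraries.

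Among the checkpoint kinases, Atm, which answers double-strand breaks, was at 1.94 ± 0.697 FPKM in wild type and 2.07 ± 0.433 in knockout (SD, n = 3 each, here and below). Atr, which answers stalled replication, was at 4.11 ± 0.684 and 4.11 ± 0.207 FPKM. Chek2, a target of Atm, was at 2.56 ± 0.514 and 2.93 ± 0.175 FPKM. Atm varied most of all tested members within a genotype, with a coefficient of variation of 28.5%. Chek1, a target of Atr, was between 0.215 and 0.431 FPKM in every library. None of the 4 separated by genotype. The MRN complex holds broken ends and activates Atm, and its 3 genes were expressed at unequal levels: Rad50 at 3.53 ± 0.114 and 3.84 ± 0.236 FPKM, Mre11a, the nuclease, at 3.95 ± 0.444 and 3.75 ± 0.495 FPKM, and Nbn at 11.5 ± 1.07 and 11.8 ± 0.452 FPKM. Their log2 fold changes were -0.06 to 0.10, and the limma intervals of all 3 lay within 1.5-fold on the log2(FPKM + 1) scale.

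The homologous recombination genes were among the lowest members. Brca1 was between 0.133 and 0.396 FPKM, Brca2 between 0.241 and 0.289 FPKM and Palb2, which bridges the products of both, between 0.257 and 0.714 FPKM. Rad51c, a further gene of the route, was at 0.705 ± 0.136 FPKM in wild type and 1.03 ± 0.302 in knockout. Xrcc2, the only tested member of the route, was at 1.34 ± 0.272 and 1.57 ± 0.255 FPKM. The knockout libraries of Brca2 were all below the wild-type ones, but the gap was from 0.259 to 0.261 FPKM and the gene did not enter the fit. Fancd2, the central Fanconi protein at interstrand crosslinks, was at 0.754 ± 0.0919 and 1.04 ± 0.293 FPKM, with overlap. The 12 proliferation markers summed to 20.6 to 27 FPKM in wild type and 20.7 to 35.2 in knockout.

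The end joining genes were expressed above those of homologous recombination. Xrcc5 and Xrcc6, the Ku subunits that clamp a broken end, were at 19.1 ± 0.785 and 15.3 ± 1.04 FPKM in wild type and at 20.2 ± 2.05 and 15 ± 1.24 FPKM in knockout. Xrcc4, the partner of the ligase, was at 9.06 ± 0.871 and 8.30 ± 0.313 FPKM. The catalytic parts were lower: Prkdc, the DNA-dependent protein kinase, was at 2.06 ± 0.443 and 2.21 ± 0.169 FPKM. Lig4, the ligase, was at 2.83, 2.06 and 1.83 FPKM in wild type and 3.66, 3.45 and 2.38 in knockout. Its log2 fold change of 0.36 had a limma interval from -0.08 to 0.80 (adjusted p = 0.450), and wild-type replicate 1 lay above knockout replicate 10.

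In base excision and single-strand break repair, Parp1, which senses nicks, was at 17.7 ± 0.735 FPKM in wild type and 16.6 ± 1.39 in knockout, and the scaffold Xrcc1 was at 16.1 ± 1.24 and 16 ± 1.33 FPKM. Of the ligases, Lig3 was at 7.95 ± 1.13 and 8.00 ± 0.556 FPKM and Lig1, the replicative ligase, at 3.07 ± 0.607 and 2.85 ± 0.351 FPKM. Apex1, the endonuclease that cuts at the lost base, was at 5.14 ± 1.04 and 4.19 ± 0.402 FPKM with overlap. Opposite-strand genes share 61.7% of the exon bases of Apex1 (Pip4p1) and 25.1% of those of Lig3 (Rffl, at 4.74 to 5.88 FPKM). Both levels carry the limit on shared exon bases given for Ogg1 below. Ung, which removes uracil, was between 0.0262 and 0.367 FPKM. Ogg1 was at 6.09, 4.23 and 3.90 FPKM in wild-type replicates 1, 5 and 6 and at 6.21, 6.84 and 7.93 FPKM in knockout replicates 7, 8 and 10. The knockout libraries were all above the wild-type ones, but replicate 1 came within 0.118 FPKM of knockout replicate 7. The log2 fold change of Ogg1 was 0.49 (limma interval 0.09 to 0.90, unadjusted p = 0.0241, adjusted p = 0.336), the largest positive value among the members. Without wild-type replicate 1 it was 0.65 with a limma adjusted p of 0.0488, in a fit where 3.41% of all genes passed. With libraries weighted by limma's arrayWeights, which gave wild-type replicate 1 a weight of 0.236 and replicate 5 a weight of 4.06, it was 0.59 with an adjusted p of 0.0250, where 7.64% of all genes passed. Its unadjusted p was 0.0940 with libraries scaled to the same FPKM sum, and 0.0769, 0.0756, 0.0556 and 0.0828 without wild-type replicate 5, wild-type replicate 6, knockout replicate 8 and knockout replicate 10. Among the wild-type libraries Ogg1 was highest in replicate 1, as was the ciliated marker sum, and whether the 2 are linked was not tested. Ogg1 lies at chr6:113326972-113335068 (GENCODE vM21, plus strand). Camk1 on the opposite strand shares 10.6% of its exon bases and was at 35.4 to 58.6 FPKM. The strand setting of the counting was not given in the sources used here, so reads of the shared part cannot be told apart.

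Nucleotide excision repair held the member with the highest level. Ddb1, the adaptor that holds Ddb2 at damage and also serves the CUL4 ubiquitin ligases, was at 89.4 ± 3.83 FPKM in wild type and 93.9 ± 3.80 in knockout. The nuclease Ercc1 was at 14.5 ± 3.14 and 14.6 ± 1.76 FPKM, above its partner Ercc4 at 4.62 ± 0.468 and 4.46 ± 0.648 FPKM. The other nuclease, Ercc5, was at 5.87 ± 0.369 and 5.95 ± 0.436 FPKM, and Xpa, which verifies the lesion, at 9.56 ± 2.42 and 8.72 ± 2.15 FPKM. None of these 5 separated by genotype. Ercc2, a helicase of TFIIH, was at 2.86, 2.49 and 3.01 FPKM in wild type and 2.47, 2.33 and 2.38 in knockout. All knockout libraries were lower, with 0.0250 FPKM between the nearest ones, a log2 fold change of -0.16 and a limma adjusted p of 0.627. Ercc2 lies at chr7:19382010-19395694 (plus strand), 25485 bases from Ercc1. Opposite-strand genes share its exon bases, Gm26852 24.6% and Klc3 17.8%, and Klc3 was at 12.2 to 16.8 FPKM.

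Of the 4 members that p53 is known to activate, 0 passed the threshold (0.00836% of all genes did) and 1 separated by genotype (19.3% of all genes). Ddb2 was at 12.2, 13.3 and 12.6 FPKM in wild type and 11.7, 10.8 and 11.3 in knockout. Every knockout library was lower, and the log2 fold change was -0.16 (limma interval -0.36 to 0.05, adjusted p = 0.494). Ddb2 had the smallest spread within genotype of the tested members, a coefficient of variation of 4.07%, against medians of 11.5% over the members and 13.2% over all tested genes. Its locus, chr2:91211572-91236982 (minus strand), shares 23.8% of exon bases with Acp2 on the other strand, which was at 9.36 to 11.6 FPKM. Xpc was at 15.1, 11.6 and 12.3 FPKM in wild type and 13.1, 12.1 and 8.93 in knockout. The genotypes overlapped, with a log2 fold change of -0.19 (limma interval -0.58 to 0.20, adjusted p = 0.680). Rrm2b was at 4.97, 5.07 and 4.53 FPKM in wild type and 5.66, 4.42 and 4.68 in knockout. Knockout replicates 7 and 8 were its highest and its lowest library (log2 fold change 0.01, limma interval -0.28 to 0.30). Polk was at 4.86, 3.77 and 3.90 FPKM in wild type and 6.00, 5.90 and 4.74 in knockout, so that wild-type replicate 1 lay above knockout replicate 10. Its log2 fold change was 0.34, opposite in sign to those of Trp53 and Cdkn1a (limma interval 0.01 to 0.67, unadjusted p = 0.0464, adjusted p = 0.378). The weighted fit gave 0.45 with an adjusted p of 0.0466. Polk lies at chr13:96480690-96542579 (minus strand), shares no exon bases with another annotated gene, and like Ogg1 was highest among the wild-type libraries in replicate 1. The lower interval limits of Ddb2, Xpc and Rrm2b were -0.36, -0.58 and -0.28, and how far these genes depend on p53 in these cells was not tested.

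The remaining routes have a single member each. Msh6 was at 12.5 ± 1.36 and 13.8 ± 1.09 FPKM (log2 fold change 0.13, overlap). Mgmt, which takes alkyl groups off guanine, had the most negative fold change of the members. It was at 6.33, 10.2 and 13.1 FPKM in wild type and 7.80, 7.46 and 6.08 in knockout. Wild-type replicate 1 lay among the knockout libraries, and the log2 fold change of -0.38 had a limma interval from -0.94 to 0.19 (adjusted p = 0.545).

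**Figure D2:**
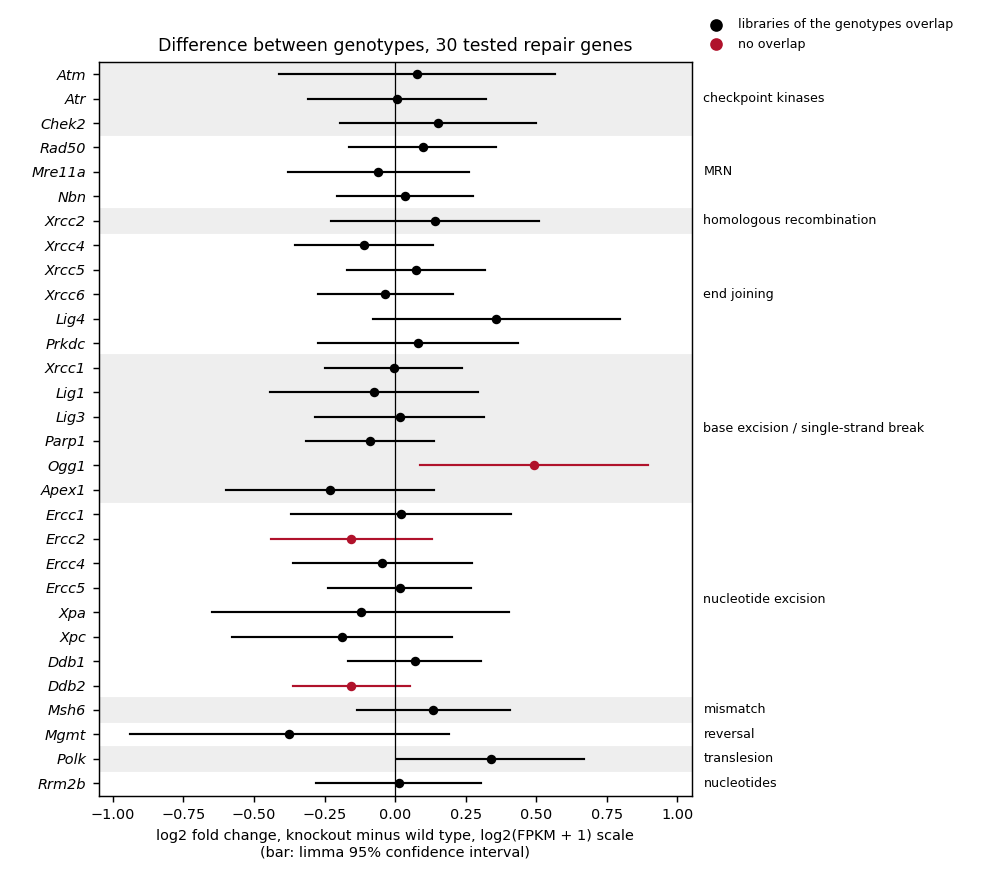
Log2 fold change, knockout minus wild type, on the log2(FPKM + 1) scale with its limma 95% confidence interval for the 30 tested repair genes, grouped by route and coloured red where the libraries of the genotypes did not overlap. Only the intervals of Ogg1 (0.09 to 0.90) and Polk (0.01 to 0.67) lie to the right of 0, and none lies to the left.

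Beyond the 37 members, 100 other genes of the same routes were listed, of which 89 were tested and 0 passed the limma threshold. At an unadjusted p under 0.05 there were 5 (13.1% of all genes), 3 of them higher and 2 lower in knockout. There were 14 without overlap (19.3% of all genes), 7 in each direction, and the median log2 fold change of the 89 was 0.01. The 6 higher ones with the smallest p were Wee1, Fanca, Cetn2, Alkbh3, Ercc6 and Rad1. Wee1, a kinase that holds cells before mitosis, was at 10.3 ± 0.768 FPKM in wild type and 15.2 ± 1.64 in knockout (log2 fold change 0.52, adjusted p = 0.288). Cetn2, a centrin that also binds Xpc, was at 44.2 ± 4.12 and 56.6 ± 5.05 FPKM (0.35, adjusted p = 0.324). Fanca, of the Fanconi core complex, was at 0.602 ± 0.166 and 1.32 ± 0.283 FPKM and passed the filter through its knockout libraries alone. Alkbh3, which removes alkyl groups, had a log2 fold change of 0.27, Ercc6, of transcription-coupled repair, 0.27, and Rad1, of the checkpoint clamp, 0.19. The 6 lower ones were Mus81, Polm, Atrip, Hus1, Mlh3 and Tipin. Mus81, a nuclease for branched DNA, was at 20.3 ± 0.844 and 16.8 ± 1.30 FPKM (-0.27, adjusted p = 0.336). Polm, an end joining polymerase, was at 5.53 ± 0.748 and 4.2 ± 0.0845 FPKM (-0.32, adjusted p = 0.357). Atrip, the partner of Atr, had a log2 fold change of -0.27, Hus1, of the checkpoint clamp, -0.25, Mlh3, of mismatch repair, -0.16, and Tipin, of the replication fork, -0.12. With library weights 3 of the 89 passed (7.64% of all genes): Wee1, Polm and Cetn2.

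In the single cells a repair gene was detected (TPM of 1 or more) in a minority of the cells of each chip, except Ercc4 and Chek2 on the knockout chip. Each genotype is 1 chip, so there is no replicate check and no test, and intervals on shares (exact binomial, 95%) cover counting error only. Median detected genes per cell were 3130.5 on the wild-type chip and 3580 on the knockout chip, and the median share of TPM in ERCC spike-ins was 13.2% and 6.28%, so the chips differed in how much was detected per cell. TPM values hold no counts, and cells could not be thinned to a common depth. Cells held 4.15 ± 2.51 of the 37 members in wild type (SD over 66 cells) and 5.48 ± 2.43 in the cells labelled knockout (SD over 61 cells). Within cells of at least 2500 genes the means were 5.09 and 5.76, the gap falling from 1.32 to 0.68 members. The share of cells was higher on the knockout chip for 28 members and lower for 8, and in cells of at least 2500 genes for 22 and 14. The matching counts over all genes were not computed, so these are not read as particular to repair genes. Members were detected more often in cells with more detected genes on each chip (Spearman rho 0.78 over 66 wild-type cells and 0.54 over 61 cells labelled knockout, a description, since both count genes of the same cell). All members were at 0 in the off-chip negative control, which had 2 genes at a TPM of at least 1.

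**Figure D3:**
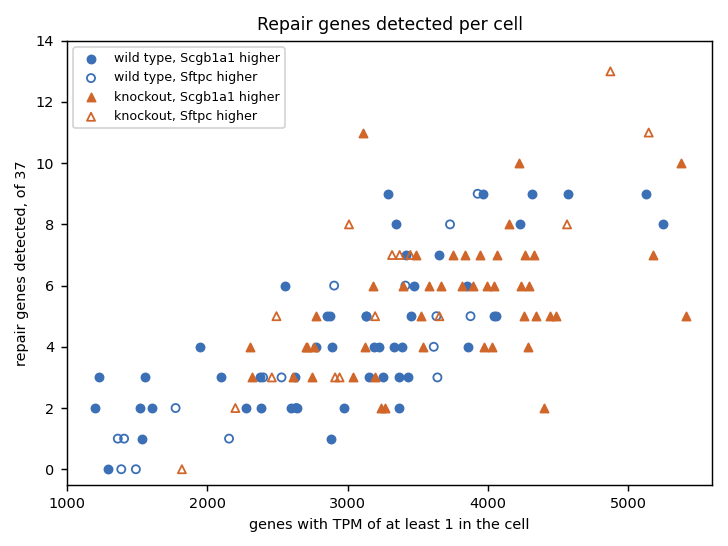
Number of the 37 repair genes at a TPM of at least 1 in each cell against all genes at a TPM of at least 1, for 66 wild-type cells (circles) and 61 cells labelled knockout (triangles), filled where Scgb1a1 exceeds Sftpc and open where Sftpc is higher. Cells on the right hold more repair genes on both chips, and the wild-type chip has more cells under 2500 genes (19 of 66 against 6 of 61).

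Of the 37 members, 23 were detected in at least 10% of the cells of either chip. Mean log2(TPM + 1) did not differ by 1 or more for any of them (0 of 23), where 8.03% of the 9486 genes so detected were higher by at least 1 in the cells labelled knockout and 0.137% lower. The median difference of the 23 was 0.15 and that of all genes 0.25. For 16 members the difference was positive and for 7 negative, while it was positive for 76.1% of all genes. The values ran from -0.34 for Xpc to 0.71 for Xrcc4. Signs and extremes depend in part on the filter. Ercc2, Xpc, Mre11a and Msh6 passed it through the wild-type chip alone, and Xrcc6, Prkdc and Polk through the knockout chip alone. With no detection filter 26 of 36 members were positive and 10 negative, against 62.9% of all genes positive. With cells of at least 2500 genes the median of the members was 0.03, with 13 positive and 12 negative, and that of all genes was 0.11.

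The members detected in most cells were Ercc4, Chek2, Ddb1, Xrcc5 and Parp1. Ercc4 was detected in 31 of the 66 wild-type cells (47%, interval 34.6 to 59.7%) and 33 of 61 cells labelled knockout (54.1%, interval 40.8 to 66.9%), with a median TPM of 2.56 and 2.65 in the cells that held it. It was above 0 in 56 and 54 cells. In cells of at least 2500 genes the direction turned (27 of 47 and 30 of 55, -2.90 percentage points). Chek2 was detected in 24 of 66 cells (36.4%, interval 24.9 to 49.1%) and 36 of 61 (59%, interval 45.7 to 71.4%). This was the widest gap of any member, 22.7 percentage points, and in cells of at least 2500 genes it was 17.1 points (21 of 47 and 34 of 55). There the Newcombe interval of the difference, -2.16 to 34.8 points, included 0. At a TPM of at least 10, Chek2 was in 1 of 66 and 3 of 61 cells. Its median TPM where detected was 2.86 on the wild-type chip and 2.61 on the knockout chip. Ddb1, the highest member in bulk, was detected in 20 of 66 cells (30.3%) and 21 of 61 (34.4%). Its mean TPM ran the other way, 16.8 against 5.90, so no order is read from it, and in cells of at least 2500 genes the shares differed by -2.24 points (19 of 47 and 21 of 55). Parp1 was detected in 14 of 66 (21.2%) and 15 of 61 cells (24.6%), and in 13 of 47 and 13 of 55 cells of at least 2500 genes, a turn to -4.02 points.

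End joining had the widest gap between the chips among the routes with several members. At least 1 of its 5 genes turned up in 25 of the 66 wild-type cells (37.9%, interval 26.2 to 50.7%) and 40 of the 61 cells labelled knockout (65.6%, interval 52.3 to 77.3%). This route was singled out after its values were seen. No matching share was computed for sets of other genes or for the route in cells of at least 2500 genes. Whether the gap goes beyond the difference in genes detected per cell was not tested. Xrcc5 was detected in 11 of 66 (16.7%) and 20 of 61 cells (32.8%), with a difference in mean log2(TPM + 1) of 0.70, and Xrcc4 in 9 of 66 (13.6%) and 18 of 61 (29.5%). In cells of at least 2500 genes Xrcc5 was detected in 10 of 47 and 20 of 55 cells, and Xrcc4 in 8 of 47 and 18 of 55. There the Newcombe intervals of the differences, -2.70 to 31.2 points for Xrcc5 and -1.36 to 31.2 points for Xrcc4, included 0. At any TPM above 0, Xrcc4 was in 44 of 66 and 41 of 61 cells. Its counts at a TPM of at least 10 were 0 of 66 and 6 of 61. In bulk Xrcc5 had a log2 fold change of 0.07 and Xrcc4 of -0.11. For nucleotide excision repair the shares of cells with any member were 71.2% and 83.6%, and for base excision and single-strand break repair 45.5% and 55.7%.

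**Figure D4:**
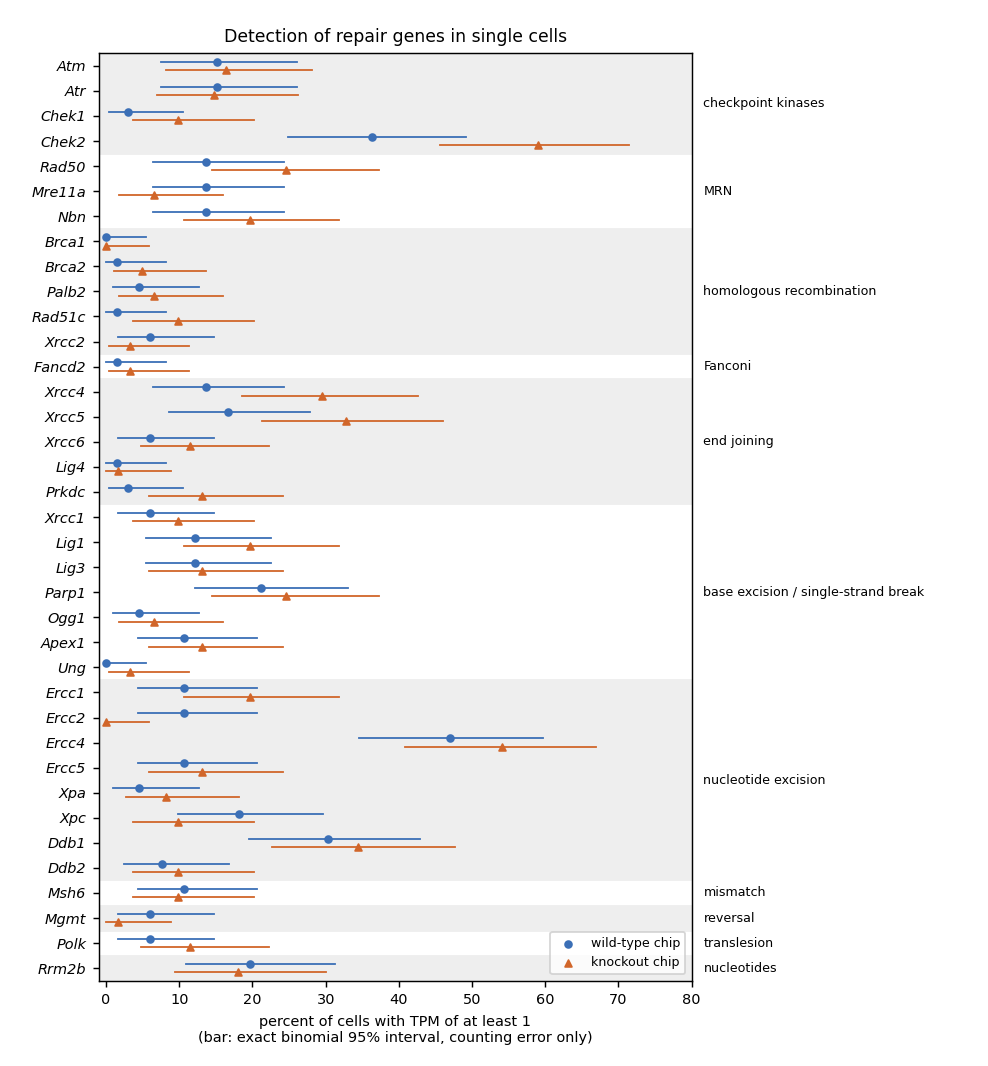
Percent of cells with a TPM of at least 1 for each of the 37 repair genes on the wild-type chip (circles) and the knockout chip (triangles), with exact binomial 95% intervals that cover counting error only. Most intervals overlap between the chips, Ercc4 and Chek2 are detected most often, and Ercc2 is seen in 10.6% of wild-type cells but in no cell labelled knockout.

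Ercc2 stood against the direction of most members. Its counts were 7 of 66 wild-type cells (10.6%, interval 4.37 to 20.6%) and 0 of 61 cells labelled knockout (interval 0 to 5.87%). In cells of at least 2500 genes the counts were 5 of 47 and 0 of 55. In bulk the knockout libraries of Ercc2 were all lower, as for 10.2% of all tested genes, with 0.0250 FPKM between the nearest ones and a log2 fold change of -0.16. Those of Ddb2 and Brca2 were all lower too, and Brca2 did not enter the fit. Ercc2 passed the single-cell detection filter through the wild-type chip alone, and its bulk and single-cell values were not tested together. The most negative difference in mean log2(TPM + 1) was that of Xpc, though with a pseudocount of 10 and in cells of at least 2500 genes it was that of Ddb1 (-0.23 and -0.63) and with a pseudocount of 0.1 that of Ercc2 (-0.64). Xpc was detected in 12 of 66 (18.2%, interval 9.76 to 29.6%) and 6 of 61 cells (9.84%, interval 3.70 to 20.2%). Of the other members known to be activated by p53, Ddb2 was detected in 5 of 66 and 6 of 61 cells, Polk in 4 of 66 and 7 of 61, and Rrm2b in 13 of 66 and 11 of 61, with differences in mean log2(TPM + 1) of -0.01, 0.14 and 0.15. Ogg1 was detected in 3 of 66 and 4 of 61 cells, too few to set beside its bulk values. Brca1 was detected in 0 of 66 and 0 of 61 cells (intervals up to 5.44% and 5.87%), and the other homologous recombination genes in at most 6 cells of a chip.

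Both chips held cells with more Scgb1a1 and cells with more Sftpc, a surfactant gene of alveolar type 2 cells. These are ranges cut at equal TPM and not cell types, with 49 and 17 wild-type cells and 46 and 15 cells labelled knockout, of which 1 and 3 cells lay within 2-fold of the cut. Ddb2 was detected in 3 of 17 and 5 of 15 Sftpc-higher cells but in 2 of 49 and 1 of 46 Scgb1a1-higher cells. The direction was the same on both chips, and with 1 chip each it was not tested over samples. In bulk, wild-type replicate 1 had the highest alveolar type 2 sum and the lowest wild-type Ddb2 level. Xpc, in contrast, was detected in 1 of 17 and 0 of 15 Sftpc-higher cells and in 11 of 49 and 6 of 46 Scgb1a1-higher cells. Polk turned direction between the chips (0 of 17 and 3 of 15 Sftpc-higher, 4 of 49 and 4 of 46 Scgb1a1-higher cells). So did Rrm2b (2 of 17 and 3 of 15, 11 of 49 and 8 of 46). Atm, Nbn and Parp1 ran as Xpc did on both chips, and members running each way were not counted. Median detected genes per cell were 2633 and 3196 in Sftpc-higher cells and 3154 and 3824 in Scgb1a1-higher cells. Markers of other cell types varied by list. No cell had any of the 4 basal markers at a TPM of at least 1. The same held for Ptprc and Cd52 of the 7 immune markers and for 5 of the 7 fibroblast markers. Pecam1, Cdh5 and Egfl7 of the 5 endothelial markers reached this level in no cell either. Others of these lists were common, such as Sparc (36.4% on the wild-type and 32.8% on the knockout chip), Kdr (31.8% and 23%) and Cd68 (15.2% and 14.8%). Laptm5, Tyrobp, Fcer1g and Coro1a were detected on the knockout chip only, in 1.64 to 4.92% of cells. Detection of single markers ranged from 0 to 13.6% and 0 to 32.8% for the 10 ciliated markers, from 3.03 to 30.3% and 11.5 to 52.5% for the 5 goblet markers, and from 34.8 to 72.7% and 39.3 to 72.1% for the 4 alveolar type 1 markers. All 12 proliferation markers had a higher share on the knockout chip, from 1.64 to 37.7% there against 0 to 30.3% on the wild-type chip. The matching count over all genes was not computed, so this is not read as particular to proliferation. Median detected genes per cell were 3580 on the knockout chip and 3130.5 on the wild-type chip. The part of these differences in the repair gene values was not tested.

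Across the 37 members, mean bulk FPKM and mean TPM over all cells had a Spearman rho of 0.72, and mean bulk FPKM and percent of cells detected had a rho of 0.54. These are across genes, which are not independent replicates, and both measures share transcript properties such as length and base composition. Ercc4 and Chek2 were detected in the most cells at bulk levels of 4.54 and 2.75 FPKM, while Ddb1, at 91.6 FPKM, was detected in fewer. This order holds at a TPM of at least 1. At a TPM of at least 10 it turned, with Ddb1 in 11 of 66 and 10 of 61 cells. Ercc4 was then in 2 of 66 and 2 of 61 cells, and Chek2 in 1 of 66 and 3 of 61. Nbn, at 11.7 FPKM in bulk, was detected in 9 of 66 and 12 of 61 cells.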

How the data were processed

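Bulk libraries were sorted lung cells, and single cells were captured on C1 chips, 1 per genotype. The submitters' processing notes name TopHat, Bowtie2, Cufflinks and mm10 for the bulk FPKM that the authors deposited. For the cells the same notes name Bowtie 1.1.1, RSEM 1.2.20 and GRCm38, and the TPM values are as the authors deposited them, in 1 table per chip. The deposited bulk table marks 20 entries in 12 genes in place of a value, and these genes were left out. FPKM and TPM hold no counts, so no count test was used and the depth is unknown.

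The bulk test was limma 3.58.1 (R 4.3.3) on log2(FPKM + 1), two-sided, using eBayes with its trend and robust options, adjusted by Benjamini-Hochberg over all 11957 genes with at least 1 FPKM in at least 3 of 6 libraries. On this scale fold changes of low genes come out too small. Cells with a remark (1 and 3) or under 1000 genes (6 and 3) were left out, and 2 knockout samples had no column and were not analysed here. Cell values are log2(TPM + 1), with detection at a TPM of at least 1. Scripts were tested on simulated data. Per the labels' protocol, doublet wells were taken out by eye, and no caller was used for doublets.

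Groups came from the genotype and title labels. In the header of the bulk table, wild-type replicate 6 lacks a prefix ("second") that the other 5 columns carry. What it marks is not stated, and 1 library cannot be told apart as a batch. The members and lists were chosen with earlier results of these data known. Values in every library are given for members without overlap, for the 4 that p53 is known to activate and for any past the threshold when a library was left out. Lig4 and Mgmt were added after their values were seen. Of the other repair genes up to 6 in each direction were named. In cells the 5 most detected members and the 4 that p53 activates were named, and other members there were named after their values were seen. Alternatives were another pseudocount, no filter, scaling, centring, library weights, left-out libraries and stricter cell filters.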

Additional observations from a re-analysis of the deposited data

Results flagged for a closer look

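The off-chip positive control of the knockout chip, which enters no comparison, held 16 of the 37 repair genes at a TPM of at least 1, against 0 in the off-chip negative control. It had 7953 genes at a TPM of at least 1, more than any kept cell, and the member with the highest value was Ercc1 at a TPM of 18.3. Ercc4, detected in 31 of 66 and 33 of 61 single cells, was at 0 there, as were Ogg1, Ercc2, Ddb2 and Mgmt. What the positive control was made from is not given in the labels, and the difference was not tested.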

How the results depend on the processing

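The alternatives were set out for each result, except that library weights for single members were added after seeing the data. The limma calls depended on the libraries used and on their weights. With 1 library left out, the members past the threshold numbered 0 to 1 (Ogg1, without wild-type replicate 1) and the other repair genes 0 to 0. The median log2 fold change of the members then ran from -0.03 to 0.04. With library weights 2 members (Ogg1 and Polk) and 3 other repair genes passed. Of these only Ogg1 also passed without wild-type replicate 1. Members without overlap numbered 3 to 12 with 1 library left out (12 without wild-type replicate 1), where 27.7 to 35.6% of all genes had no overlap. With each library scaled to the same FPKM sum 1 member had no overlap, against 11.6% of all genes. Rrm2b changed sign, at -0.0069 with scaling to the same FPKM sum, -0.013 with centring on the median and -0.022 with library weights, and between -0.075 and 0.072 with 1 library left out. Without wild-type replicate 6, whose column name differs from the others, 0 members passed and 3 had no overlap, against 31.1% of all genes. In single cells the median difference of the members was 0.078 with a pseudocount of 10, 0.32 with a pseudocount of 0.1 (where 2 members differed by at least 1, against 21.6% of all genes) and 0.031 in cells with at least 2500 genes. The gap in members detected per cell, 1.32, was 0.74 at a TPM of at least 10 and 0.68 in cells with at least 2500 genes. For these the cause was not tested. Single-cell values were called the same within 1.5-fold. No paired analysis was possible because the bulk genotypes share no replicate number and the numbers of cells only name them. The number of libraries limits precision in bulk, and 1 chip per genotype leaves none in single cells.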
